A study of Saccharomyces cerevisiae with 12 samples.

Results

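The genes described here are 10 genes of purine nucleotide synthesis and adenine salvage in Saccharomyces cerevisiae: ADE4, ADE8, ADE6, ADE2, ADE1, ADE13, ADE16, ADE17, ADE12 and AAH1. They were chosen by symbol, as the probe sets that the platform annotation gives to exactly 1 of these genes, and each of the 10 had 1 probe set, out of 5656 genes named on the array. The study hybridised 12 Affymetrix arrays with RNA of as many S288C cultures. Cells diluted to OD600 0.1 first grew for 1 h at 30 °C and were then exposed for 5 h. Controls were exposed to the solvent dimethylformamide (DMF), and the treated cultures to 0.625 ppm of tomatidine, 13.9 ppm of tomatine or 0.313 ppm of fenpropimorph in that solvent. The experiment was run on 3 separate days with every group on every day, so that tomatine 2, for example, means the tomatine culture of day 2. Tomatine is a steroidal glycoalkaloid of tomato, tomatidine is the same steroid without the sugars, and fenpropimorph is an agricultural fungicide that acts on the sterol enzymes ERG24 and ERG2. The doses differ between the compounds, so differences between compounds describe these cultures and not matched exposures. Groups and doses come from the sample titles, since another label field names tomatidine for every sample, controls included. The growth medium, and whether it held adenine, is not given in the sources used here.

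Yeast makes purines by building the ring of inosine monophosphate (IMP) step by step on phosphoribosyl pyrophosphate (PRPP), and IMP is then turned into adenine or guanine nucleotides. The transcription factors BAS1 and PHO2 together switch on most ADE genes when purines run short, in response to late intermediates of the pathway, and they also act on genes that supply glycine, one-carbon units and histidine. Purine bases can instead be taken up and recycled by salvage enzymes, among them the adenine deaminase AAH1.

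Array medians lay between 77.2 and 78.6, so the arrays were closely alike in scale, and their number limits the precision. The 4 genes marking alpha cells, the mating type of S288C, had signals from 373 to 6122, and 5 genes marking a cells from 6.23 to 110. The alpha-cell genes were themselves lower with fenpropimorph (4 of 4 called, median log2 fold change -1.55) and with tomatidine (2 of 4 called, median -0.48), while with tomatine the median was 0.02. Their part in the results on the purine genes was not tested. The 3′ to 5′ log2 signal ratio of the array's control gene SPT15, a measure of RNA and labelling quality, was 1.49 to 2.02 in the tomatidine group and 2.20 to 2.53 in the other 9 arrays. A lower ratio means a smaller excess of 3′ over 5′ signal. Tomatidine 2 had the lowest SPT15 ratio and also the highest ratio for ACT1, at 0.61 against 0.26 to 0.47 on the other arrays. Values below are deposited signals on a linear scale, or their log2, and ± gives the standard error of a log2 fold change from the model, with n = 3 arrays in each group. A gene was called when its limma p-value, Benjamini-Hochberg adjusted over 9275 probe sets, was under 0.05. These are levels relative to the rest of the RNA of a whole culture, so a change in all cells and a change in a share of the cells cannot be told apart.

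The genes of purine synthesis were lower with tomatine and with fenpropimorph. With tomatine, 6 of the 10 genes fell and 0 rose, where 1.77% of all tested probe sets fell and 2.59% rose. With fenpropimorph, 8 of 10 fell and 0 rose, where 16.9% of probe sets fell and 13.4% rose. With tomatidine 0 of 10 passed limma's test, where 4.44% of probe sets did, and 6 of 10 had an unadjusted p under 0.05 against 16.8% of probe sets. These 6 went in both directions: ADE1, ADE2, ADE6, ADE8 and ADE13 were lower, and AAH1 was higher. The median log2 fold change of the 10 genes was -0.28 with tomatidine, -0.52 with tomatine and -0.66 with fenpropimorph, against medians of -0.02, -0.01 and -0.07 over all tested probe sets. A difference among the 4 groups was called for 9 of the 10 genes, all but ADE16, where 37.2% of probe sets were called. The 3 control arrays are common to these comparisons. The genes and the lists further below were chosen with earlier results of these data known. The shares of all probe sets set beside their counts are therefore a description and not a test.

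**Figure D1:**
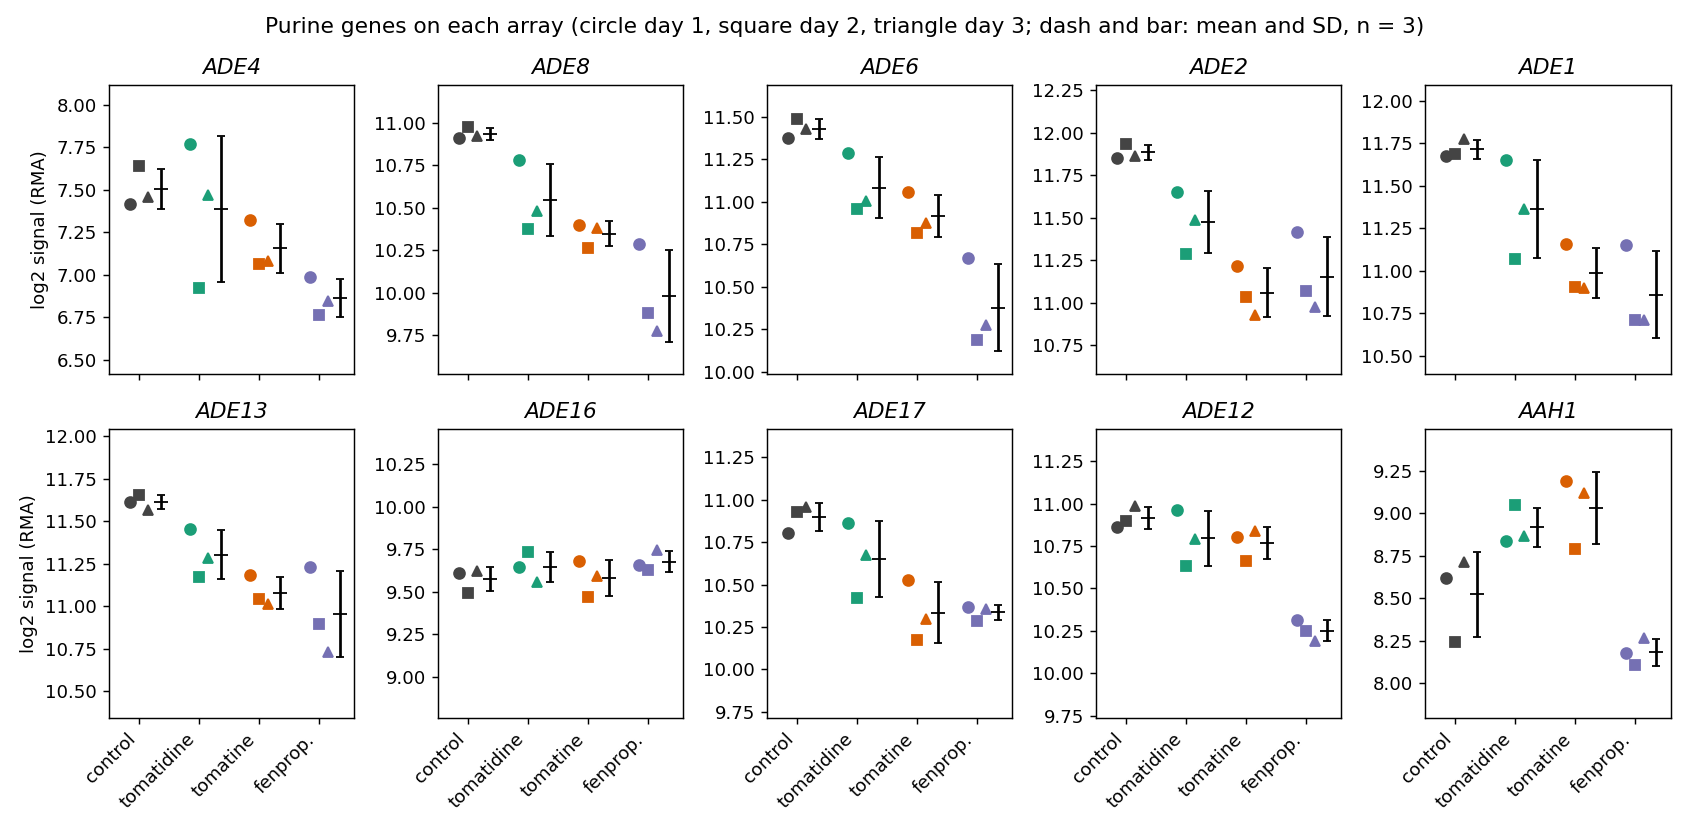
Log2 signal of each gene on each of the 12 arrays, with the genes in pathway order and the same span of log2 units in each panel. Points are arrays, and the dash with its bar is the group mean and SD (n = 3). The control arrays lie at the top for the genes from ADE4 to ADE13, apart from tomatidine 1 and tomatidine 3 for ADE4. ADE16 differs little between groups, though its fenpropimorph arrays are all above the controls. AAH1 is highest with tomatine and lowest with fenpropimorph.

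ADE4 (YMR300C) encodes the amidotransferase that commits PRPP to purine synthesis. Its signal was 171, 199 and 176 in the controls of days 1 to 3, 218, 121 and 177 with tomatidine, 160, 134 and 136 with tomatine, and 127, 109 and 115 with fenpropimorph. The fenpropimorph arrays were all below the tomatine arrays, these were all below the controls, and the tomatidine arrays were spread from the highest of all 12 values to one inside the fenpropimorph range. ADE4 fell 1.56-fold with fenpropimorph (log2 fold change -0.64 ± 0.170, adjusted p = 0.0138), a call lost without control 2 (adjusted p = 0.0502) or fenpropimorph 2 (adjusted p = 0.0531). With tomatine its log2 fold change was -0.35 ± 0.170 (adjusted p = 0.307).

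ADE8 and ADE6 encode enzymes that build the first ring, glycinamide ribotide transformylase and formylglycinamidine ribotide synthetase. ADE8 (YDR408C) had signals of 1924, 2011 and 1942 in control, 1764, 1329 and 1429 with tomatidine, 1350, 1231 and 1335 with tomatine, and 1249, 944 and 875 with fenpropimorph. Every treated array was below every control array. ADE8 fell 1.5-fold with tomatine (log2 fold change -0.59 ± 0.129, adjusted p = 0.0295) and 1.94-fold with fenpropimorph (-0.95 ± 0.129, adjusted p = 0.000156). ADE6 (YGR061C) had signals of 2655, 2872 and 2753 in control, 2505, 1990 and 2053 with tomatidine, 2130, 1807 and 1880 with tomatine, and 1630, 1167 and 1238 with fenpropimorph. The fenpropimorph arrays stood apart below all others. ADE6 had the largest fall of the 10 genes with fenpropimorph, at 2.07-fold (log2 fold change -1.05 ± 0.126, adjusted p = 5.85e-05), and fell 1.43-fold with tomatine (-0.51 ± 0.126, adjusted p = 0.0440).

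ADE2 and ADE1 act next, as the carboxylase of aminoimidazole ribotide and as the ligase that makes the intermediate SAICAR, and mutants of either collect a red pigment. ADE2 (YOR128C) had signals of 3702, 3918 and 3730 in control, 3223, 2499 and 2877 with tomatidine, 2382, 2098 and 1950 with tomatine, and 2733, 2146 and 2017 with fenpropimorph. The tomatine arrays were all below the tomatidine arrays, and the fenpropimorph arrays overlapped with both. ADE2 had the largest fall of the 10 genes with tomatine, at 1.77-fold (log2 fold change -0.82 ± 0.123, adjusted p = 0.00710), and fell 1.66-fold with fenpropimorph (-0.73 ± 0.123, adjusted p = 0.000799). ADE1 (YAR015W) had signals of 3276, 3303 and 3512 in control, 3221, 2152 and 2639 with tomatidine, 2288, 1915 and 1912 with tomatine, and 2278, 1677 and 1675 with fenpropimorph. Tomatidine 1 was close to the controls, and the tomatine and fenpropimorph ranges overlapped. ADE1 fell 1.66-fold with tomatine (log2 fold change -0.73 ± 0.15, adjusted p = 0.0233) and 1.81-fold with fenpropimorph (-0.86 ± 0.15, adjusted p = 0.00108).

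ADE13 (YLR359W) encodes adenylosuccinate lyase, which works both in the ring synthesis and in the last step to AMP. Its signals were 3138, 3228 and 3037 in control, 2810, 2308 and 2492 with tomatidine, 2327, 2105 and 2066 with tomatine, and 2400, 1906 and 1702 with fenpropimorph. All treated arrays were below the controls. The fall was 1.45-fold with tomatine (log2 fold change -0.53 ± 0.115, adjusted p = 0.0272) and 1.58-fold with fenpropimorph (-0.66 ± 0.115, adjusted p = 0.00105).

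ADE16 and ADE17 are isozymes that finish the ring, as AICAR transformylase and IMP cyclohydrolase in 1 protein, and their values differed. ADE17 (YMR120C) had signals of 1785, 1951 and 1989 in control, 1865, 1369 and 1635 with tomatidine, 1476, 1157 and 1258 with tomatine, and 1323, 1246 and 1309 with fenpropimorph. It fell 1.48-fold with tomatine (log2 fold change -0.56 ± 0.114, adjusted p = 0.0212) and 1.47-fold with fenpropimorph (-0.56 ± 0.114, adjusted p = 0.00280). ADE16 (YLR028C) had signals of 780, 720 and 788 in control, 800, 851 and 753 with tomatidine, 820, 709 and 772 with tomatine, and 807, 790.5 and 859 with fenpropimorph. The fenpropimorph arrays were all above the controls, by little at the nearest (790.5 against 788). No group stood apart by the test: the log2 fold changes were 0.07, 0.01 and 0.10 with the 3 compounds, and the 95% intervals were -0.09 to 0.23, -0.16 to 0.17 and -0.06 to 0.27. The log2 difference of ADE17 from ADE16 on the same array was lower than in control by -0.57 with tomatine and by -0.66 with fenpropimorph. For both, every treated array was below every control array, which gives an exact permutation p of 0.1 (two-sided), the smallest that 3 against 3 arrays allow. With tomatidine the change in this difference was -0.31 (exact permutation p = 0.2). The isozymes are close relatives, and how far their probe sets cross-hybridise was not tested.

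ADE12 (YNL220W) encodes adenylosuccinate synthase, the first step from IMP towards AMP. Its signals were 1862, 1907 and 2030 in control, 1992, 1590 and 1775 with tomatidine, 1785, 1618 and 1835 with tomatine, and 1275, 1217 and 1171 with fenpropimorph. The 3 fenpropimorph arrays were all below the other 9, which ran from 1590 to 2030. Among those, the tomatine arrays were all below the controls, and the tomatidine arrays overlapped with both. ADE12 fell 1.58-fold with fenpropimorph (log2 fold change -0.66 ± 0.0862, adjusted p = 0.000113). With tomatine the log2 fold change was -0.15 (95% interval -0.34 to 0.04, adjusted p = 0.405) and with tomatidine -0.12 (95% interval -0.31 to 0.07, adjusted p = 0.535). The difference between fenpropimorph and tomatine was itself called (-0.52 ± 0.0862, adjusted p = 0.000520), and so was that between fenpropimorph and tomatidine (-0.54 ± 0.0862, adjusted p = 0.000519).

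AAH1 (YNL141W) encodes adenine deaminase, which turns adenine into hypoxanthine, and its gene is known to be shut off when cells enter quiescence. Its signals were 393, 302 and 419 in control, 456, 530 and 467 with tomatidine, 583, 442 and 555 with tomatine, and 290, 275 and 307 with fenpropimorph. All tomatine and tomatidine arrays were above all controls, and the fenpropimorph arrays reached from below the controls to just inside their range. AAH1 was called neither with tomatine (log2 fold change 0.51 ± 0.131, adjusted p = 0.0507) nor with tomatidine (0.39 ± 0.131, adjusted p = 0.143) nor with fenpropimorph (-0.34 ± 0.131, adjusted p = 0.0699). With the day of culture as a block the tomatine value was called (adjusted p = 0.0473), and it was called in 10 of 17 alternatives in all. The fenpropimorph value was called lower in 6 of 17, among them quantile normalization (adjusted p = 0.0456), array weights (adjusted p = 0.0173) and the fit without control 2 (adjusted p = 0.0113). The compounds differed from each other: AAH1 was lower with fenpropimorph than with tomatine by -0.85 ± 0.131 (adjusted p = 0.000283) and lower than with tomatidine by -0.73 ± 0.131 (adjusted p = 0.00115). These calls were kept in all 17 alternatives.

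**Figure D2:**
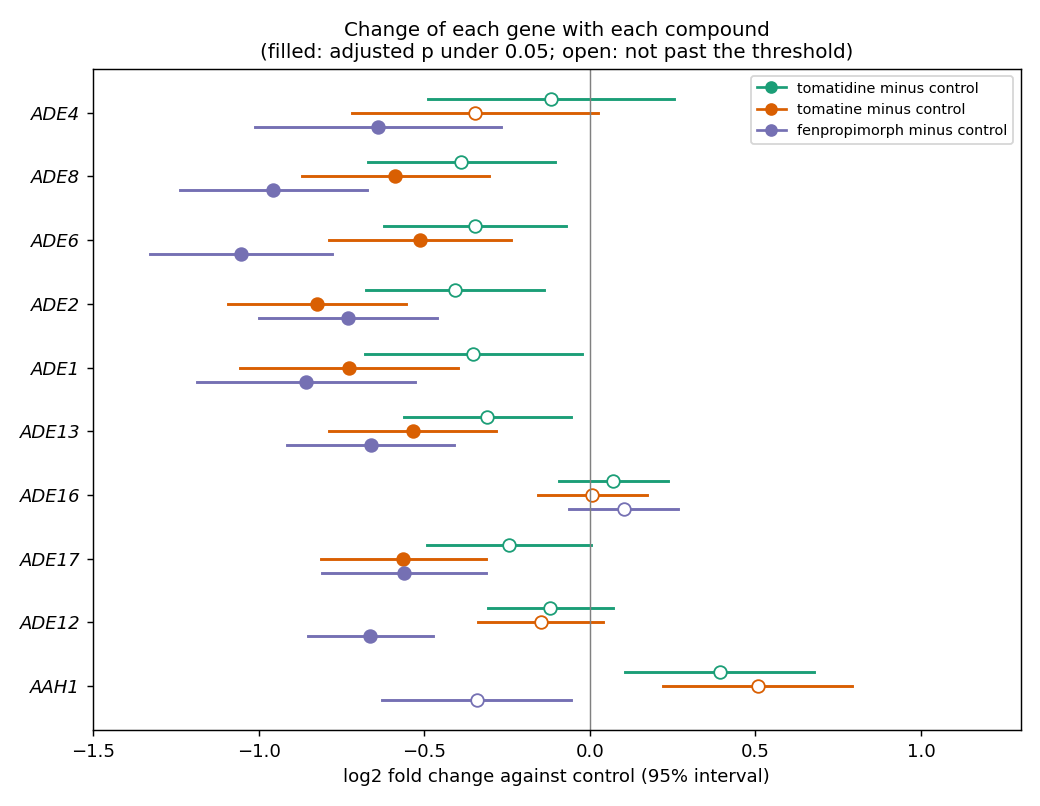
Log2 fold change of each gene against control with its 95% interval, for the 3 compounds. Filled points passed an adjusted p of 0.05. For ADE8, ADE6, ADE2, ADE1, ADE13 and ADE17 the tomatine and fenpropimorph points are filled and below 0, ADE4 and ADE12 are filled for fenpropimorph alone, the intervals of ADE16 hold 0, and AAH1 lies above 0 for tomatidine and tomatine and below 0 for fenpropimorph, with no filled point.

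How firmly the calls hold differs between the compounds. With fenpropimorph, each fit without 1 of the 6 arrays compared gave 7 or 8 lower genes. With tomatine the count of 6 lower genes was 4 without tomatine 1 and 1 in each fit without control 1, control 2, control 3, tomatine 2 or tomatine 3. The share of all probe sets called in these fits was not counted, so a general loss of calls with fewer arrays cannot be told apart. In the fits without control 3 or tomatine 2, AAH1 was called higher (adjusted p = 0.0462 and 0.0429). ADE2 was the gene left lower in the fits with 1, and its adjusted p was at most 0.0359 in all 17 alternatives. The call of ADE6 was also lost with array weights (adjusted p = 0.0575), and that of ADE17 with only control and tomatine in the fit (adjusted p = 0.0529). Directions did not change: ADE1, ADE2, ADE6, ADE8, ADE13 and ADE17 were lower with tomatine in all 17, with ADE6 between -0.61 and -0.46 on the log2 scale and ADE1 between -0.83 and -0.68.

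Between tomatine and its aglycone tomatidine, at their different doses, 0 of 10 genes were called by limma, where 5.09% of probe sets were, and 3 of 10 had an unadjusted p under 0.05 against 19.3% of probe sets. ADE2 had the lowest value, at -0.42 with tomatine against tomatidine (95% interval -0.69 to -0.15, adjusted p = 0.0780), and was called with the day as a block (adjusted p = 0.0449). The intervals of ADE1, -0.70 to -0.05, and of ADE17, -0.57 to -0.07, also lay below 0, and those of the other 7 genes held 0.

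Fenpropimorph stood below tomatidine for 7 of 10 genes, where 17% of probe sets were lower, and below tomatine for 4 of 10, where 22.5% were lower. The 7 were ADE1, ADE4, ADE6, ADE8, ADE12, ADE13 and AAH1. ADE2 and ADE17 were also called with the day as a block (adjusted p = 0.0341 and 0.0414), which made 9. The count of 7 was 9 without tomatidine 2, 8 without fenpropimorph 1 and 4 without tomatidine 1, tomatidine 3, fenpropimorph 2 or fenpropimorph 3. Here too the share of all probe sets called in each fit was not counted. The 4 genes lower than with tomatine were ADE6 (-0.54 ± 0.126, adjusted p = 0.00479), ADE8 (-0.37 ± 0.129, adjusted p = 0.0410), ADE12 and AAH1. The call of ADE8 was lost without tomatine 1, tomatine 2, tomatine 3, fenpropimorph 2 or fenpropimorph 3 (adjusted p from 0.0521 to 0.162), with quantile normalization (adjusted p = 0.0648) and with only these groups fitted (adjusted p = 0.0685). ADE1, ADE2, ADE13 and ADE17 were not called between tomatine and fenpropimorph, with log2 differences of -0.13, 0.09, -0.13 and 0.00 and 95% intervals of -0.46 to 0.20, -0.18 to 0.36, -0.38 to 0.13 and -0.25 to 0.25. Ordered by group means, 6 of the 10 genes ran control, tomatidine, tomatine, fenpropimorph from high to low, as did 5.49% of all tested probe sets. ADE2 and ADE17 had the order of tomatine and fenpropimorph turned, and ADE16 and AAH1 had orders of their own.

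Relative to the control of the same day, most of the genes were higher in the treated cultures of day 1 than in those of the other days. ADE1 differed by -0.02 with tomatidine on day 1, by -0.62 on day 2 and by -0.41 on day 3. With fenpropimorph, ADE6 differed by -0.70, -1.30 and -1.15 on the 3 days, and ADE8 by -0.62, -1.09 and -1.15. The difference was highest, that is least negative or most positive, on day 1 for 8 of 10 genes with tomatidine, 10 of 10 with tomatine and 8 of 10 with fenpropimorph. For AAH1 and ADE16 with tomatine, and for ADE4, ADE12 and ADE17 with tomatidine, this was a difference above 0. Over all tested probe sets the share was 26.4%, 28.1% and 38.2%, and over the probe sets called lower it was 22.6%, 39.6% and 48.1%. The control of day 1 is common to these values. Averaged over the 10 genes after centring each on its mean, the controls lay at 0.27, 0.29 and 0.33, tomatidine at 0.29, -0.04 and 0.10, tomatine at 0.05, -0.18 and -0.10, and fenpropimorph at -0.18, -0.42 and -0.41. Controls were thus close to each other, and in each treated group day 1 was the highest. As a factor in limma, the day had an adjusted p from 0.775 to 0.927 for the 10 genes (unadjusted p from 0.0235 to 0.606). The share of all probe sets with a day effect was not counted, so these values are not set against it.

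**Figure D3:**
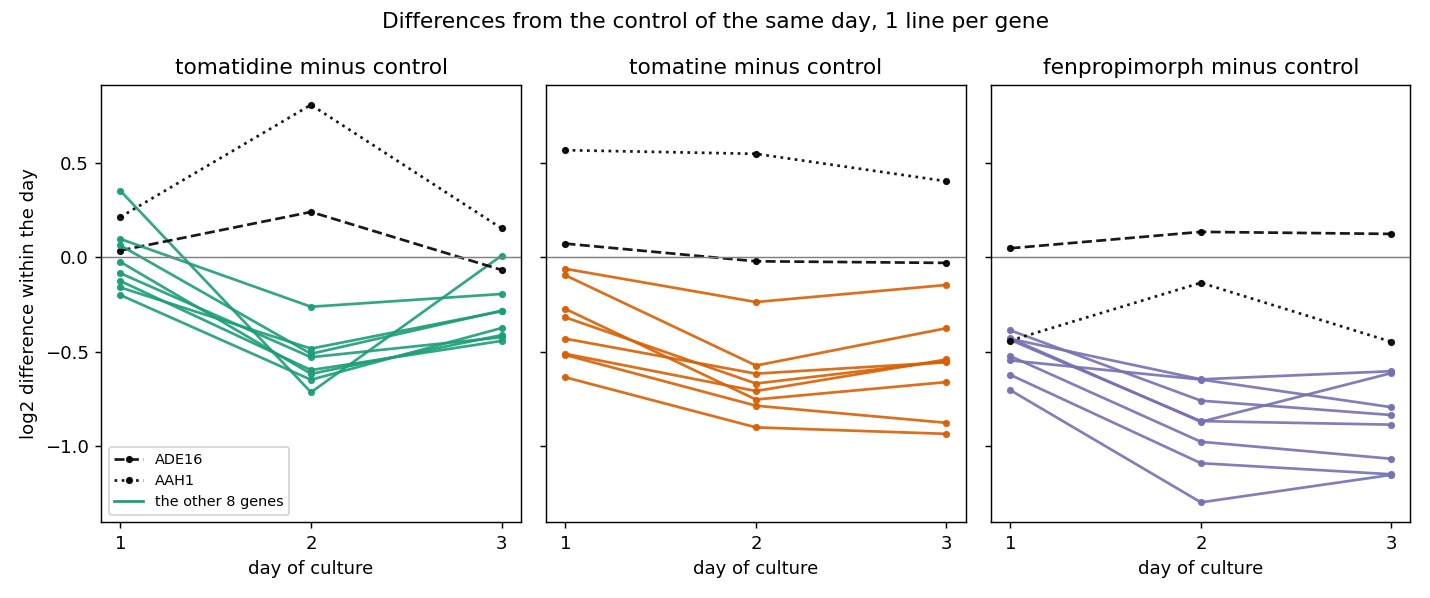
Log2 difference of each treated array from the control of the same day, for each compound, with a line joining the values of 1 gene. ADE16 (dashed) stays near 0 and AAH1 (dotted) is above 0 with tomatidine and tomatine and below 0 with fenpropimorph, while the other 8 genes are mostly below 0 and are closest to 0 on day 1, except ADE4 with tomatidine, which lies at 0.35 on day 1 and 0.01 on day 3.

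Without the arrays of day 1, an alternative chosen after the values were seen, the number of genes lower than control was 2 with tomatidine (ADE6 and ADE8, adjusted p = 0.0466 and 0.0473), 3 with tomatine and 8 with fenpropimorph. The share of all probe sets called in that fit was not counted, so a general change in the number of calls cannot be told apart. The SPT15 ratio given above, and so the excess of 3′ signal of that gene, was low in all tomatidine arrays. Tomatidine 2 had the lowest SPT15 ratio but the highest ACT1 ratio. It had the lowest signal of its group for ADE1, ADE2, ADE4, ADE6, ADE8, ADE12, ADE13 and ADE17. The part of RNA quality in the tomatidine values was not tested. Without tomatidine 2 the count with tomatidine was also 0.

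Other genes of the pathway were read from lists of enzymes and regulators. In the guanine branch, 3 of 4 measured genes fell with fenpropimorph and 0 with tomatine or tomatidine, with median log2 fold changes of -0.33, -0.05 and -0.05. Of all tested probe sets, 16.9% fell with fenpropimorph and 1.77% with tomatine, and 4.44% were called in either direction with tomatidine. IMD2, an IMP dehydrogenase, fell by 0.45 on the log2 scale with fenpropimorph (SE 0.0947, adjusted p = 0.00349), and its relative IMD3 fell by 0.34 (SE 0.0887, adjusted p = 0.0133). The IMD genes are near-identical, so their probe sets may share signal, and the call of IMD3 was lost without fenpropimorph 2 (adjusted p = 0.0578) and without day 1 (adjusted p = 0.0775). Among 5 PRPP synthetase genes 0 were called with tomatidine or tomatine, and PRS1 fell with fenpropimorph (-0.33 ± 0.104, adjusted p = 0.0303). That call was lost with the day as a block (adjusted p = 0.0511) and without control 1, control 2, control 3 or fenpropimorph 1 (adjusted p from 0.0523 to 0.0913). The log2 fold change of PRS1 was -0.20 without fenpropimorph 1 and -0.17 without day 1 (adjusted p = 0.212), and with only control and fenpropimorph fitted the adjusted p was 0.0780.

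In the list of 16 genes of salvage, uptake and interconversion, 1 rose with tomatidine, 2 rose and 2 fell with tomatine, and 4 rose and 8 fell with fenpropimorph. Of all tested probe sets, 4.44% were called in either direction with tomatidine. With tomatine 2.59% rose and 1.77% fell, and with fenpropimorph 13.4% rose and 16.9% fell. The median log2 fold change of the list was 0.06 with tomatine and -0.16 with fenpropimorph. The signal of FCY21, a relative of the purine-cytosine permease FCY2, was 16.8, 16.8 and 16.5 in control and 31.6, 31.9 and 31.6 with tomatine, a 1.90-fold rise (log2 fold change 0.93 ± 0.117, adjusted p = 0.00436). FCY21 was dim, and with 16 added to every signal before log2 its log2 fold change was 0.55. FCY21 also passed with tomatidine (0.46 ± 0.117, adjusted p = 0.0492), but not with the day as a block (adjusted p = 0.0571) nor without control 1, control 2, control 3, tomatidine 2 or tomatidine 3 (adjusted p from 0.115 to 0.172). With 16 added, its tomatidine log2 fold change was 0.26 and not called (adjusted p = 0.0586). That call was also lost with array weights (adjusted p = 0.103) and with only control and tomatidine fitted (adjusted p = 0.175). With fenpropimorph FCY21 rose by a like amount (0.45 ± 0.117, adjusted p = 0.0118). TPN1, a vitamin B6 transporter of the same permease family, fell with tomatine (-0.52 ± 0.0958, adjusted p = 0.0161) and with fenpropimorph (-0.78 ± 0.0958, adjusted p = 7.38e-05). Its tomatine call was lost without control 1, control 2, tomatine 2 or tomatine 3 (adjusted p at most 0.0603) and without day 1 (adjusted p = 0.0620). SAF1 encodes the F-box protein that marks the AAH1 enzyme for destruction. Its signal was 120.5, 129 and 117 in control, 108, 112 and 93.7 with tomatine, and 215, 222 and 199 with fenpropimorph, whose arrays were far above the others (log2 fold change 0.79 ± 0.0948, adjusted p = 5.82e-05).

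Another list held 10 genes that share regulation by BAS1: genes of one-carbon units, glycine breakdown and histidine synthesis, and the glutamine synthetase gene GLN1. Of these, 7 fell with tomatine, where 1.77% of all tested probe sets fell, and 7 with fenpropimorph, where 16.9% fell. With tomatidine 1 rose, where 4.44% of probe sets were called in either direction. Their median log2 fold changes were -0.25 with tomatidine, -0.53 with tomatine and -0.48 with fenpropimorph. Of the histidine genes, HIS7 was lower with tomatine, while HIS1 (log2 fold change 0.06, adjusted p = 0.774) and HIS4 (-0.25, adjusted p = 0.187) were not called. With fenpropimorph HIS1 and HIS7 were lower and HIS4 was not called. GLN1 was not called with any of the compounds against control. The glycine decarboxylase subunit gene GCV2 went from 2299, 2121 and 2118 in control to 1021, 541 and 754 with tomatine and to 1249, 1010 and 897 with fenpropimorph. The tomatine and fenpropimorph arrays were all below the controls. The log2 fold changes of GCV2 were -1.54 ± 0.216 with tomatine (adjusted p = 0.00597) and -1.06 ± 0.216 with fenpropimorph (adjusted p = 0.00284). With tomatine GCV1, another subunit of that enzyme complex, changed next most (-1.13 ± 0.131, adjusted p = 0.00436), and with fenpropimorph MTD1, a folate enzyme that makes one-carbon units usable in purine synthesis (-0.91 ± 0.153, adjusted p = 0.000812). HIS1, the first enzyme of histidine synthesis, was the gene that rose with tomatidine (0.37 ± 0.0831, adjusted p = 0.0286), a call lost without control 2, control 3, tomatidine 1 or tomatidine 2 (adjusted p from 0.0820 to 0.132). It was also lost with only control and tomatidine fitted (adjusted p = 0.0624) and without day 1 (adjusted p = 0.129).

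Of the regulators, BAS1 had signals of 148, 124 and 146 in control, 168, 160.5 and 161 with tomatidine, 175, 201 and 164 with tomatine, and 113, 99.9 and 104 with fenpropimorph. The tomatine arrays were all above the controls and the fenpropimorph arrays all below them. BAS1 fell with fenpropimorph (log2 fold change -0.40 ± 0.0914, adjusted p = 0.00629), though not without day 1 (adjusted p = 0.0596). With tomatine it passed the test in the other direction (0.37 ± 0.0914, adjusted p = 0.0456), a call lost with the day as a block (adjusted p = 0.0631) and in each fit without 1 of the 6 arrays compared (adjusted p from 0.0651 to 0.154). The tomatine call of BAS1 was also lost with only control and tomatine fitted (adjusted p = 0.135) and without day 1 (adjusted p = 0.234). PHO2 was not called with any compound, with log2 fold changes of -0.02, 0.04 and 0.09 for tomatidine, tomatine and fenpropimorph. GCN4, the activator of amino acid synthesis, was not called either.

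**Figure D4:**
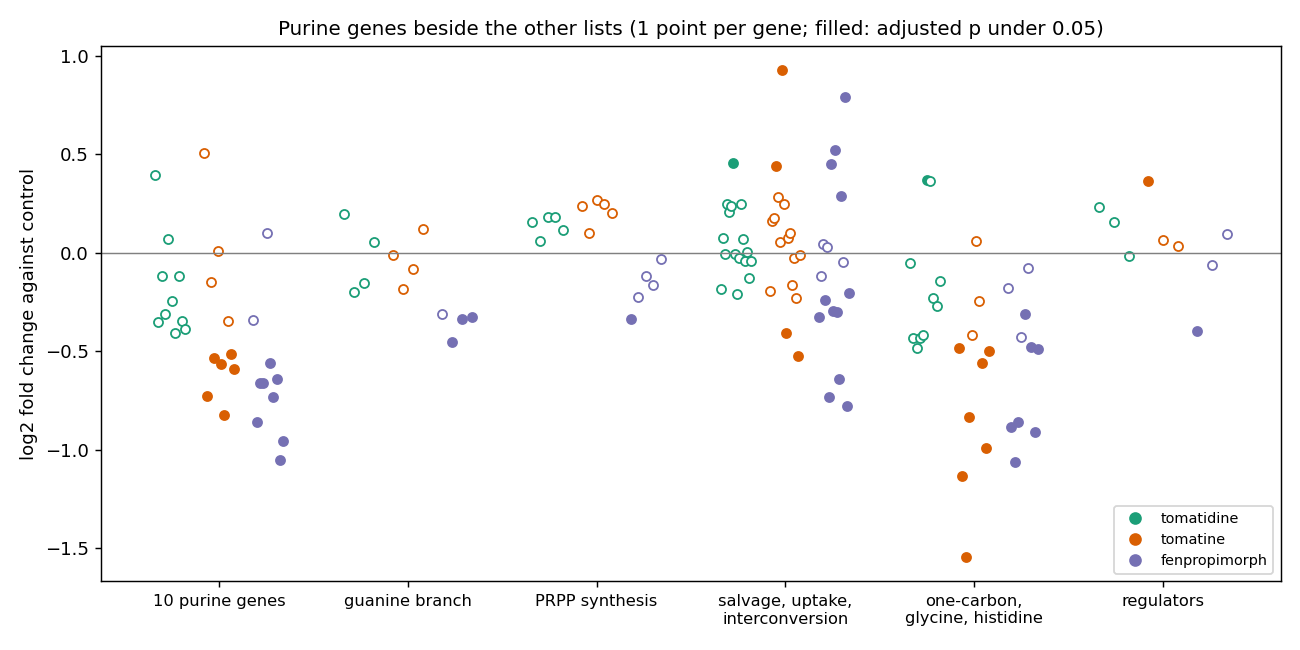
Log2 fold change against control for the 10 purine genes and for the genes of the 5 other lists, 1 point per gene and 3 compounds side by side. Filled points passed an adjusted p of 0.05. Filled tomatine points below 0 lie mainly among the purine genes and in the one-carbon, glycine and histidine list, which also holds GLN1. The salvage list holds filled points on both sides of 0.

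The 10 genes were not equally alike. By the root mean square difference of their centred log2 values from the mean of the 10 over the 12 arrays, ADE13 was closest (0.0938, rank 2 of 5656 genes), followed by ADE12 (0.113), ADE17 (0.117) and ADE4 (0.128). ADE16 (0.291) and AAH1 (0.369) were farthest, at ranks 3219 and 4608. The mean includes each of these genes, so the ranks describe the spread among them and do not test it. Outside the 10, the genes nearest to this mean were PYC2, a pyruvate carboxylase (0.0913), TPN1 (0.102), GTT3 (0.106), AIM45 (0.110) and SER2, phosphoserine phosphatase of serine synthesis (0.111). SER2 fell with tomatine (-0.54, adjusted p = 0.0270) and with fenpropimorph (-0.80, adjusted p = 0.000275). The tomatine call of SER2 was lost without control 1, control 2, control 3, tomatine 2 or tomatine 3 (adjusted p from 0.0646 to 0.0973). PYC2, GTT3 and AIM45 fell with fenpropimorph by 0.47, 0.44 and 0.48 on the log2 scale and were not called with tomatine.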

How the data were processed

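The data are 12 arrays of 9335 probe sets, with 3 arrays in each of 4 groups. The deposited intensity of each probe set came from RMA, per the submitters' processing notes, and no version or settings are given in the sources used here. Values ran from 1.84 to 21252, a linear scale, and were turned into log2. Leaving out 60 Affymetrix controls kept 9275 probe sets for testing, of which the platform annotation gives 1 gene to 6504, several to 328 and none to 2443. A gene is represented by its brightest probe set, and the symbols of all 10 purine genes were found in the S288C reference table (R64).

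In limma 3.58.1 under R 4.3.3, a single model of 4 group means took in every array, with eBayes moderation, two-sided tests and Benjamini-Hochberg adjustment over the 9275 probe sets. The labels tie the replicate number to the day of culture, so the numbers pair the samples, and the day was a block in an alternative. Deviations of same-day arrays from their group means had a mean correlation of 0.0351 (-0.203 to 0.236, 18 pairs). The genes, lists and tests were chosen with earlier results of these data known. The 10 genes are named in every comparison. From each list the 2 called genes with the largest change against control are named, besides BAS1, PHO2 and the 5 genes most like the mean of the 10. GCN4, GLN1, HIS4, HIS7, HIS1 with tomatine and fenpropimorph, and FCY21 with fenpropimorph, were added after their values were seen. Of these additions, only FCY21 was followed through the alternatives. Simulated data with known changes were used to test the method. The spread behind each p-value is that between cultures grown on 3 days. ADE5,7 is not analysed here, and a planned search of promoter sequences was not run. Python 3.11.15 and matplotlib 3.10.9 drew the figures.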

Additional observations from a re-analysis of the deposited data

How the results depend on the processing

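Besides the fits without 1 array, 10 other ways of processing were tried. Counts of called genes stayed within 1.5 times in all of these for fenpropimorph against control or tomatine and for any difference among groups. Tomatine against tomatidine gave 0, and 1 (ADE2) under 4 alternatives: the replicate block for day, bright probe sets alone, testing 1 probe set for each gene, and averaging a gene's probe sets. Fenpropimorph against tomatidine gave 7, and 4 when the other groups were left out. Without day 1, chosen after seeing the data, tomatidine gave 2 and tomatine 3. For the alternatives, the share of all probe sets called was not counted. Leaving out 1 array gave 0 to 0 called with tomatidine, 1 to 4 with tomatine, 7 to 8 with fenpropimorph, 0 to 0 between tomatine and tomatidine, 4 to 9 between fenpropimorph and tomatidine, 3 to 4 between fenpropimorph and tomatine, and 8 to 9 for any difference. Of the named genes and comparisons, the replicate block changed 7 calls, all given above, and no other.

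Of 1575 values of named genes under alternatives, 1407 kept direction and side of the threshold, 102 lost their call, 38 gained one and 28 changed sign, all 28 for log2 differences not called to begin with. Array weights gave 0.00722 for ADE4 with tomatidine, -0.0494 for ADE17 with fenpropimorph against tomatine and -0.0018 for PHO2 with tomatine. Quantile normalization gave -0.00483 for ADE16 with tomatine, -0.0149 for ADE16 with fenpropimorph against tomatidine and 0.0148 for PHO2 with tomatidine. Without day 1, ADE16 with tomatine was -0.0249, PHO2 with tomatidine 0.0153, and tomatine against tomatidine 0.0365 for ADE12 and -0.00506 for AAH1. Leaving out 1 array ranged from -0.309 to 0.114 for ADE4, -0.101 to 0.043 for PYC2 and -0.0843 to 0.0576 for PHO2 with tomatidine, and from -0.0416 to 0.0632 for ADE16 and -0.0405 to 0.0898 for PHO2 with tomatine. It ranged from -0.109 to 0.0536 for ADE12 with tomatine against tomatidine, from -0.0116 to 0.0766 for ADE16 with fenpropimorph against tomatidine, and from -0.0377 to 0.181 for ADE2 and -0.0766 to 0.0993 for ADE17 with fenpropimorph against tomatine. The cause was not tested.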
